A study of Mus musculus with 9 samples.

Results

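Transcripts of 10 genes that mark hepatic stellate cells, fibroblasts and mesenchymal stromal cells were followed in mouse liver. They were taken by symbol from the deposited table of 54532 genes: the collagen chain genes Col1a1, Col1a2 and Col3a1, the small proteoglycan genes Dcn and Lum, the matrix protein genes Dpt, Fn1 and Sparc, the protease inhibitor gene Timp1 and the receptor gene Pdgfrb. All 10 were found once each, and 9 passed the filter on low values (1 FPKM or more on average across all 9 libraries). FPKM here corrects fragment numbers for the length of a gene and for a scaling factor of its library, which was not its read total. Timp1, with a mean of 0.414 FPKM, did not pass.

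RNA was sequenced from whole livers of male C57BL/6 mice aged 5 to 7 weeks, 1 library per liver and 3 libraries per group. The NC group held normal control mice. The APAP group was fasted overnight, received 500 mg/kg acetaminophen (APAP) intraperitoneally and was sampled at 6 h. The AMSC group was fasted too, received the same dose of APAP and was also sampled at 6 h. Directly after the APAP it was given 200000 adipose-derived mesenchymal stem cells (AMSCs) through the tail vein. The AMSCs were expanded from the inguinal fat of C57BL/6 mice, so their transcripts cannot be told apart from those of the host liver. The sources used here do not state whether NC mice were fasted. The libraries carry the replicate numbers 1, 2 and 3 in the NC and APAP groups and 2, 3 and 4 in the AMSC group, and the title of NC replicate 3 carries another date than those of the other 8 libraries.

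Stellate cells lie between the sinusoidal endothelium and the hepatocytes, where the resting cells store vitamin A. After injury they can turn into contractile myofibroblasts that deposit fibrillar collagen, and fibroblasts around the portal tracts and large vessels are further sources of collagen and of small leucine-rich proteoglycans. Type I collagen is built from the chains of Col1a1 and Col1a2, and type III collagen from that of Col3a1. Decorin (Dcn), lumican (Lum) and dermatopontin (Dpt) bind and space the collagen fibrils, SPARC is a collagen-binding matricellular protein, TIMP1 inhibits matrix metalloproteinases, and PDGFRB is the receptor through which platelet-derived growth factor B drives stellate cells. Fibronectin (Fn1) is made by stromal cells and, as plasma fibronectin, in large amount by hepatocytes. Fn1 stood apart from the other 9 genes in level here as well: it ranked 471 among the 9699 genes tested by mean FPKM, with Dcn at 1638, Sparc at 2557 and the other 6 genes tested between 7093 and 8911.

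The promoters of Dpt and Timp1 are shown because Dpt was the one gene of the set past an adjusted p of 0.05 after APAP, and Timp1 had the largest ratio of mean FPKM between the APAP and NC groups. Both are the 250 bases before the start site in RefSeq (GRCm38.p6), on the plus strand. Capitals mark the matches, on either strand, to the AP-1 site TGANTCA, the STAT site TTCNNNGAA, the GC box GGGCGG, the CCAAT box and the TATA box TATAAA.
Dpt, chr1:164796413-164796662: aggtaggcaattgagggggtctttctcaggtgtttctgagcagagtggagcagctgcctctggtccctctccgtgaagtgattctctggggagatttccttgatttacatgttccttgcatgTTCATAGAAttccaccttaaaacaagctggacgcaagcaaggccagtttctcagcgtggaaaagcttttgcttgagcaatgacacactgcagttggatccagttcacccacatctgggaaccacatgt
Timp1, chrX:20869916-20870165: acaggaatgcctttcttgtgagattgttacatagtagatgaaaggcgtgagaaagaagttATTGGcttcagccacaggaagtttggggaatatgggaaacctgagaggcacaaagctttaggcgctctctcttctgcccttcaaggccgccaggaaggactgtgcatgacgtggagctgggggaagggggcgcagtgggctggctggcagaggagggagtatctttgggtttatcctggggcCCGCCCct
RefSeq promoters of 300 bases (250 before and 50 after the start) were at hand for 5 of the 10 genes, Col1a2, Col3a1, Sparc, Dpt and Timp1. A STAT match was found in 1 of the 5, that of Dpt, 128 bases before the start, and in 8.30% of 32851 mouse promoters of this length. An AP-1 match was found in 0 of the 5 and in 7.81% of all. GC box and CCAAT matches were found in Col1a2 and Timp1 (35.7% and 37.4% of all), and a TATA match in Col3a1 and Dpt (13.6% of all), that of Dpt lying 13 bases into the transcript. These matches describe letters in the windows and were not tested against any binding data. The deposited gene start lay 804 bases from the RefSeq start for Col1a2, 3103 for Sparc, 19 for Dpt and 0 for Col3a1 and Timp1.

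APAP against NC asked how the stromal transcripts 6 h after an overdose differed from those of normal mice. A part of fasting in these differences cannot be told apart, since fasting of the NC mice is not stated. The 9 genes tested were all higher in mean log2(FPKM + 1), with a median log2 fold change of 0.51 against -0.0043 over all genes tested, but 0 of the 9 was a differentially expressed gene (DEG: an adjusted p no higher than 0.05 and a change of 1 or more on the log2 scale, up or down). Of all genes tested, 5.09% were DEGs with a rise and 2.80% DEGs with a fall. Dpt passed the adjusted p alone, 1 of 9 against 25.9% of all genes. At an unadjusted p under 0.05, Dpt and Col1a2 made 2 of 9 against 39.1% of all genes, and these same genes had every APAP library above every NC library, against 43.2% of all genes without overlap in either direction. None of these shares exceeded that of all genes. With voom on recovered reads, 1 of the 9 was a DEG (Dpt) and 2 were past the adjusted p (Dpt and Col1a2), where 12.3% and 27.0% of all genes were. In bulk liver, a change in the number of cells of a type and a change in RNA per cell cannot be told apart.

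**Figure D1:**
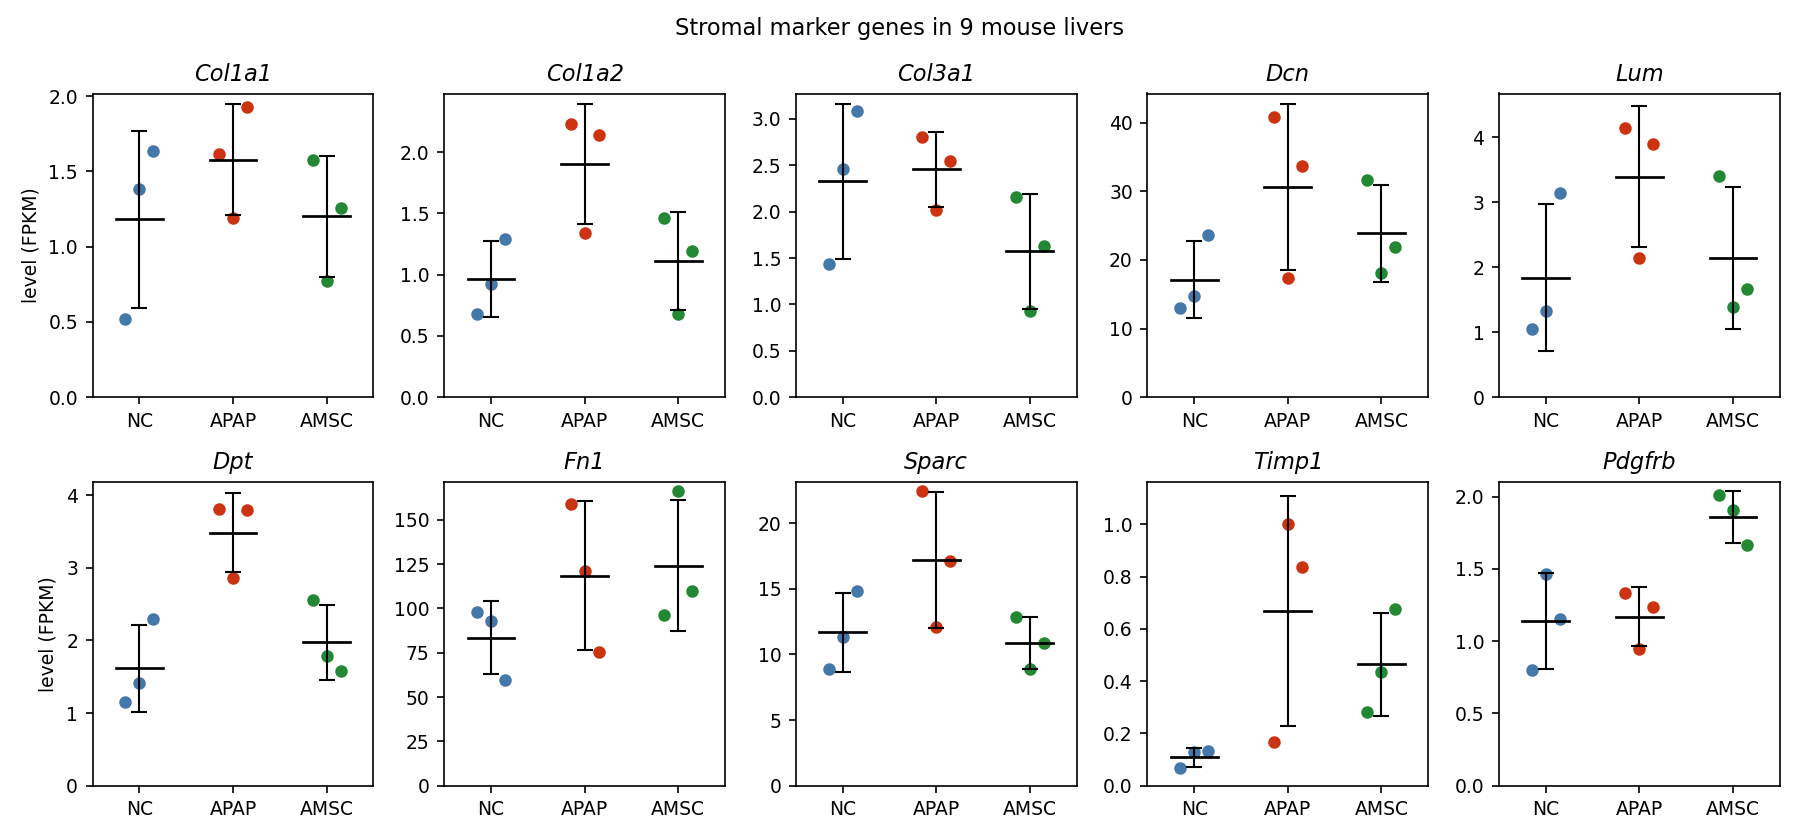
Levels of the 10 genes in FPKM (vertical axis, starting at 0, own scale per gene) in the NC, APAP and AMSC groups. Points are single libraries, the horizontal line is the mean and the bar the SD (n = 3). Dpt, Col1a2 and Timp1 (which did not pass the filter) have all 3 APAP libraries above all 3 NC libraries. Pdgfrb has all 3 AMSC libraries above those of both other groups.

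The 2 chains of type I collagen differed in how clearly they separated the groups. Col1a2 (ENSMUSG00000029661, chromosome 6, 4504814 to 4541544, plus strand) was at 0.675, 0.926 and 1.295 FPKM in NC replicates 1, 2 and 3 and at 2.226, 1.344 and 2.144 FPKM in APAP replicates 1, 2 and 3. The lowest APAP library therefore lay just above the highest NC library. The group means were 0.966 ± 0.312 and 1.91 ± 0.487 FPKM (SD, n = 3), from 616 and 936 reads, and the log2 fold change of 0.56 (95% interval 0.14 to 0.98) had an adjusted p of 0.0551 (limma). Col1a1 (ENSMUSG00000001506, chromosome 11, 94936224 to 94953042, plus strand) was at 0.521, 1.383 and 1.638 FPKM in the NC libraries and at 1.613, 1.193 and 1.927 FPKM in the APAP libraries, so the groups overlapped. Its log2 fold change was 0.27 (95% interval -0.25 to 0.79, adjusted p = 0.416, limma). The FPKM ratio of Col1a1 to Col1a2 was 0.771, 1.49 and 1.27 in the NC libraries and 0.725, 0.887 and 0.899 in the APAP libraries, with NC replicate 1 among the APAP values.

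Col3a1 (ENSMUSG00000026043, chromosome 1, 45311538 to 45349706, plus strand) was at 1.435, 2.456 and 3.090 FPKM in NC and at 2.803, 2.014 and 2.547 FPKM in APAP. All 3 APAP libraries lay inside the NC range. The log2 fold change was 0.08 (95% interval -0.39 to 0.55, adjusted p = 0.800, limma), and it turned to -0.13 without NC replicate 1. Over all 11 fibrillar collagen genes in the table, 5 passed the filter and 0 were past the adjusted p in this comparison with limma (25.9% of all genes). The 2 outside the set lay in opposite directions, Col5a3 at 1.99 ± 0.257 in NC and 4.50 ± 2.16 FPKM in APAP and Col27a1 at 1.74 ± 0.558 and 0.821 ± 0.317 FPKM (SD, n = 3, adjusted p = 0.0913 and 0.0619, limma).

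The proteoglycan genes Dcn and Lum are neighbours on chromosome 10 in the deposited table and had the same order of libraries in every group. Dcn (ENSMUSG00000019929, 97479609 to 97518143, plus strand) was at 13.03, 14.8 and 23.6 FPKM in NC and at 40.8, 17.3 and 33.8 FPKM in APAP replicates 1 to 3. Lum (ENSMUSG00000036446, 97565128 to 97572703, plus strand) was at 1.05, 1.32 and 3.13 FPKM in NC and at 4.14, 2.14 and 3.89 FPKM in APAP. In both genes APAP replicate 2 lay within the NC range and the other 2 APAP libraries above it. The log2 fold changes were 0.76 for Dcn (95% interval -0.01 to 1.53, adjusted p = 0.130) and 0.67 for Lum (-0.02 to 1.35, adjusted p = 0.137, limma). Without APAP replicate 2, Dcn became a DEG (log2 fold change 1.12, adjusted p = 0.0319, limma), and without NC replicate 3 Lum passed the adjusted p (0.97, adjusted p = 0.0316, limma).

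Dpt (ENSMUSG00000026574, chromosome 1, 164796644 to 164824266, plus strand) was at 1.15, 1.41 and 2.29 FPKM in NC and at 3.81, 2.86 and 3.80 FPKM in APAP, from 143 and 237 reads in all. It had the smallest p of the 9 genes tested. Its mean went from 1.62 ± 0.600 to 3.49 ± 0.547 FPKM (SD, n = 3), a ratio of 2.16 in mean FPKM and a log2 fold change of 0.79 on the log2(FPKM + 1) scale (95% interval 0.37 to 1.22, adjusted p = 0.0179, limma). The pseudocount of 1 holds the fold change of so low a gene down: with a pseudocount of 0.1 it was 1.11 (adjusted p = 0.0195) and with voom on recovered reads 1.15 (adjusted p = 0.0211), both DEGs. The adjusted p was above 0.05 without NC replicate 1 (0.0652), NC replicate 2 (0.0702) or APAP replicate 3 (0.0541), and with all genes above 0 in the fit (0.0852, limma in each).

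Sparc (ENSMUSG00000018593, chromosome 11, 55394500 to 55423183, minus strand) was at 8.88, 11.3 and 14.8 FPKM in NC and at 22.4, 12.1 and 17.1 FPKM in APAP. APAP replicate 2 again lay inside the NC range. The log2 fold change was 0.51 (95% interval -0.06 to 1.08, adjusted p = 0.170, limma).

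Fn1 (ENSMUSG00000026193, chromosome 1, 71585520 to 71653200, minus strand) was at 98.0, 92.9 and 59.8 FPKM in NC and at 159.1, 120.9 and 75.4 FPKM in APAP, from 49915 and 54286 reads. The order of the replicates was not that of the collagens: NC replicate 3, the highest NC library for 8 of the 10 genes, was the lowest for Fn1. The log2 fold change was 0.47 (95% interval -0.22 to 1.15, adjusted p = 0.284). With the replicate number as a block the same fold change had an adjusted p of 0.0367 (limma), and 2 of the 9 genes were then past the adjusted p, Fn1 and Dpt, against 32.0% of all genes. In each same-numbered pair Fn1 was higher in the APAP library. The number 3 of the NC library in the last pair is that of its description, and its title gives it the number 1 under another date.

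Timp1 (ENSMUSG00000001131, chromosome X, 20870166 to 20874735, plus strand), an early transcript of stellate cell activation, was too low for the fit. NC libraries held 5 reads in all and APAP libraries 23, which gave 0.0675, 0.130 and 0.131 FPKM in NC and 0.168, 0.9995 and 0.838 FPKM in APAP. The lowest APAP library, replicate 1, was only a little above the NC libraries. The rate ratio was 6.00 (95% interval 2.23 to 20.2), an interval that covers counting error only and not the spread between mice. With all genes above 0 in the fit, its adjusted p was 0.227 (limma). Timp1 lies within the span of Syn1, which is on the other strand and reached at most 0.176 FPKM here. Whether the authors' counting used strand is not given in the sources used here.

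Pdgfrb (ENSMUSG00000024620, chromosome 18, 61045150 to 61085061, plus strand) was at 0.799, 1.467 and 1.156 FPKM in NC and at 1.334, 0.943 and 1.236 FPKM in APAP. The APAP libraries lay inside the NC range, with a log2 fold change of 0.03 (95% interval -0.34 to 0.39, adjusted p = 0.911, limma). Its sign turned under quantile normalization and without NC replicate 1 or APAP replicate 1.

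**Figure D2:**
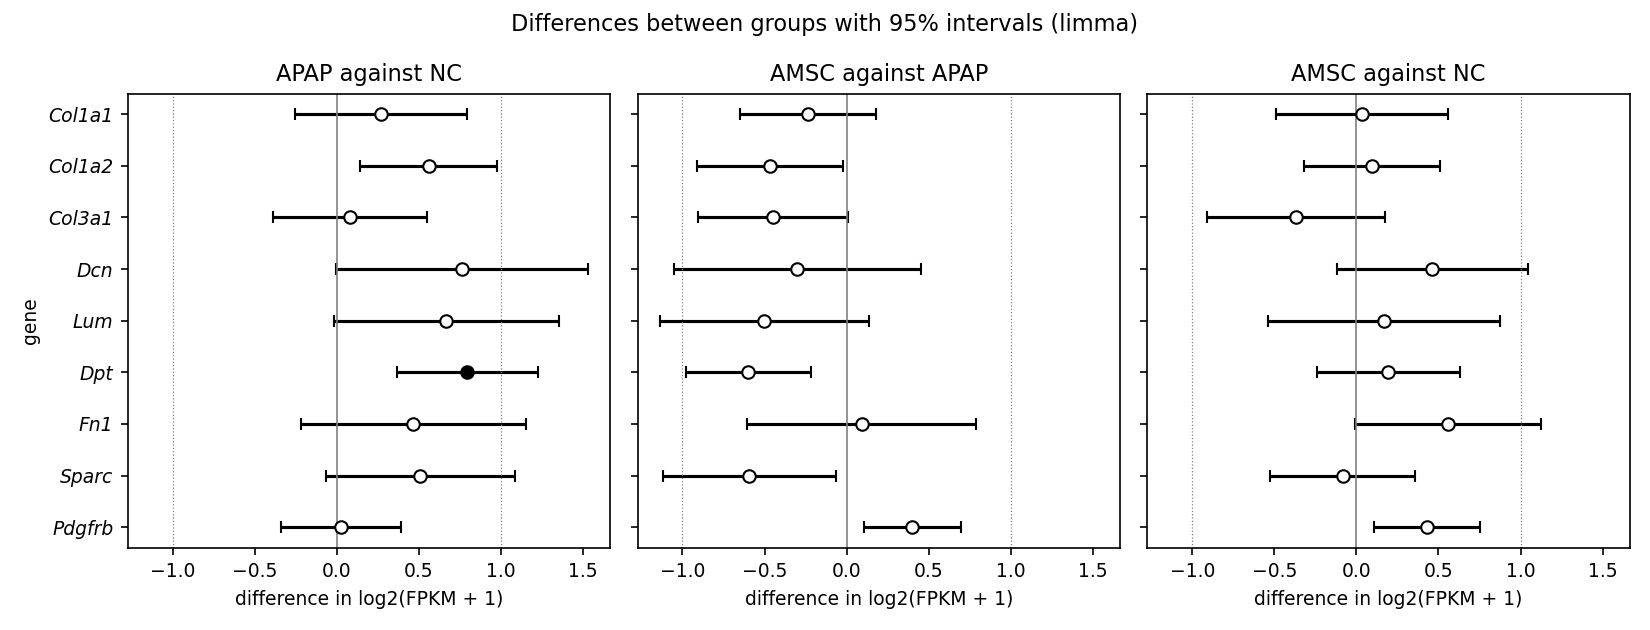
Differences in mean log2(FPKM + 1) (horizontal axis) for the 9 genes tested, in APAP against NC, AMSC against APAP and AMSC against NC, with 95% intervals from limma. A filled point is past the adjusted p and dotted lines mark differences of -1 and 1. Dpt in APAP against NC (0.79, interval 0.37 to 1.22) is the single filled point.

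AMSC against APAP asked how livers 6 h after an overdose differed when AMSCs had been given directly after the APAP. Of the 9 genes, 7 had a lower mean and 2 (Pdgfrb and Fn1) a higher mean, with a median log2 fold change of -0.45 against 0.01 over all genes tested. None of the 9 was a DEG (0.742% of all genes were DEGs with a rise and 1.22% with a fall), and 0 were past the adjusted p (3.78% of all genes) with limma or with voom (3.05% of all genes were DEGs and 4.78% past the adjusted p with voom). At an unadjusted p under 0.05 there were 4 of 9 with limma (Sparc, Dpt and Col1a2 lower, Pdgfrb higher) and 5 with voom, against 20.9% and 21.2% of all genes. Every AMSC library lay outside the APAP range for 2 of the 9, Dpt and Pdgfrb, against 27.0% of all genes. This comparison and APAP against NC use the same APAP libraries, so they are not independent of each other.

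Dpt was at 2.56, 1.79 and 1.58 FPKM in AMSC replicates 2, 3 and 4, all below the lowest APAP library (2.86 FPKM) and 1 of the 3 above the highest NC library. The mean of 1.98 ± 0.514 FPKM (SD, n = 3) gave a log2 fold change of -0.60 against APAP (95% interval -0.98 to -0.22, adjusted p = 0.0953, limma) and of 0.20 against NC (-0.24 to 0.63, adjusted p = 0.486). Col1a2 was at 1.464, 0.675 and 1.194 FPKM in the AMSC libraries, 1 of which reached into the APAP range. Its log2 fold change was -0.46 against APAP (95% interval -0.91 to -0.02, adjusted p = 0.223) and 0.10 against NC (-0.32 to 0.51, adjusted p = 0.729, limma). Sparc was at 12.8, 8.86 and 10.9 FPKM, with a log2 fold change of -0.59 against APAP (-1.12 to -0.06, adjusted p = 0.196) and of -0.08 against NC (-0.52 to 0.36, adjusted p = 0.787, limma). For these 3 genes the mean of the AMSC group lay nearer to that of NC than to that of APAP.

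Col3a1 was at 2.155, 0.925 and 1.634 FPKM in the AMSC libraries, the lowest mean of the 3 groups (1.57 ± 0.618 FPKM, SD, n = 3). Neither difference passed the test, at a log2 fold change of -0.45 against APAP (95% interval -0.91 to 0.01, adjusted p = 0.247) and -0.37 against NC (-0.91 to 0.17, adjusted p = 0.285, limma). Col1a1 was at 1.573, 0.774 and 1.257 FPKM and overlapped both other groups (adjusted p = 0.512 against APAP and 0.921 against NC, limma). Lum was at 3.40, 1.38 and 1.66 FPKM, with AMSC replicate 2 within the APAP range, and Dcn at 31.7, 18.03 and 21.9 FPKM, all within the APAP range. The log2 fold changes against APAP were -0.50 for Lum (95% interval -1.14 to 0.14, adjusted p = 0.352) and -0.30 for Dcn (-1.05 to 0.45, adjusted p = 0.666, limma).

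Fn1 was at 96.4, 166.0 and 110.1 FPKM in the AMSC libraries, a mean of 124 ± 36.9 FPKM (SD, n = 3) next to 119 ± 41.9 in APAP and 83.6 ± 20.7 in NC. Its log2 fold change against APAP was 0.09 (95% interval -0.60 to 0.79, adjusted p = 0.899, limma), and its sign turned without APAP replicate 3 or AMSC replicate 3. Timp1 had 18 reads over the AMSC libraries, at 0.284, 0.433 and 0.674 FPKM, each above the NC libraries and inside the APAP range. The rate ratio was 0.6995 against APAP (95% interval 0.356 to 1.36) and 4.197 against NC (1.502 to 14.5), counting error only. With all genes above 0 in the fit, its adjusted p was 0.776 and 0.107 (limma).

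Pdgfrb was at 2.011, 1.910 and 1.664 FPKM in AMSC replicates 2, 3 and 4, above each of the 6 other libraries, the highest of which was at 1.467 FPKM. It was the one gene of the set to do so. The mean of 1.86 ± 0.179 FPKM (SD, n = 3), from 448 reads, stood next to 1.17 ± 0.204 FPKM in APAP and 1.14 ± 0.335 FPKM in NC. The log2 fold change was 0.40 against APAP (95% interval 0.11 to 0.70, adjusted p = 0.132) and 0.43 against NC (0.10 to 0.75, adjusted p = 0.0572, limma). With voom the adjusted p against NC was 0.0374 (log2 fold change 0.74), and without NC replicate 2 it was 0.0476 with limma.

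AMSC against NC showed how far the stromal transcripts of treated livers stood from those of normal livers. The median log2 fold change of the 9 genes was 0.17 against 0.02 over all genes tested, with 7 higher and 2 lower. None was a DEG (3.92% of all genes with a rise and 2.09% with a fall) and 0 of 9 were past the adjusted p (26.0% of all genes) with limma, while voom gave 0 DEGs (9.98% of all genes) and 1 past the adjusted p (27.9% of all genes). Pdgfrb was the 1 gene of 9 at an unadjusted p under 0.05 (38.0% of all genes) and the 1 of 9 without overlap (43.5% of all genes). Fn1 had the largest log2 fold change, 0.56 (95% interval -0.01 to 1.12, adjusted p = 0.135), followed by Dcn at 0.46 (-0.12 to 1.04, adjusted p = 0.218, limma), and in both the groups overlapped.

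Within groups the genes moved by library. NC replicate 1 was the lowest NC library for 9 of the 10 genes and NC replicate 3 the highest for 8, APAP replicate 2 was the lowest APAP library for 8 and APAP replicate 1 the highest for 8, and AMSC replicate 2 was the highest AMSC library for 8. Fn1 was among the exceptions in every group, and Timp1 in the APAP and AMSC groups. Each library is 1 liver, so these are differences between single livers or libraries. Coefficients of variation within groups ran from 9.60% (Pdgfrb in AMSC) to 66.0% (Timp1 in APAP). Without NC replicate 3, the library with another date in its title, Lum, Dpt and Col1a2 were past the adjusted p in APAP against NC, 3 of 9 against 22.2% of all genes, and 0 were DEGs. That date held a single NC library, so no comparison within it was possible.

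**Figure D3:**
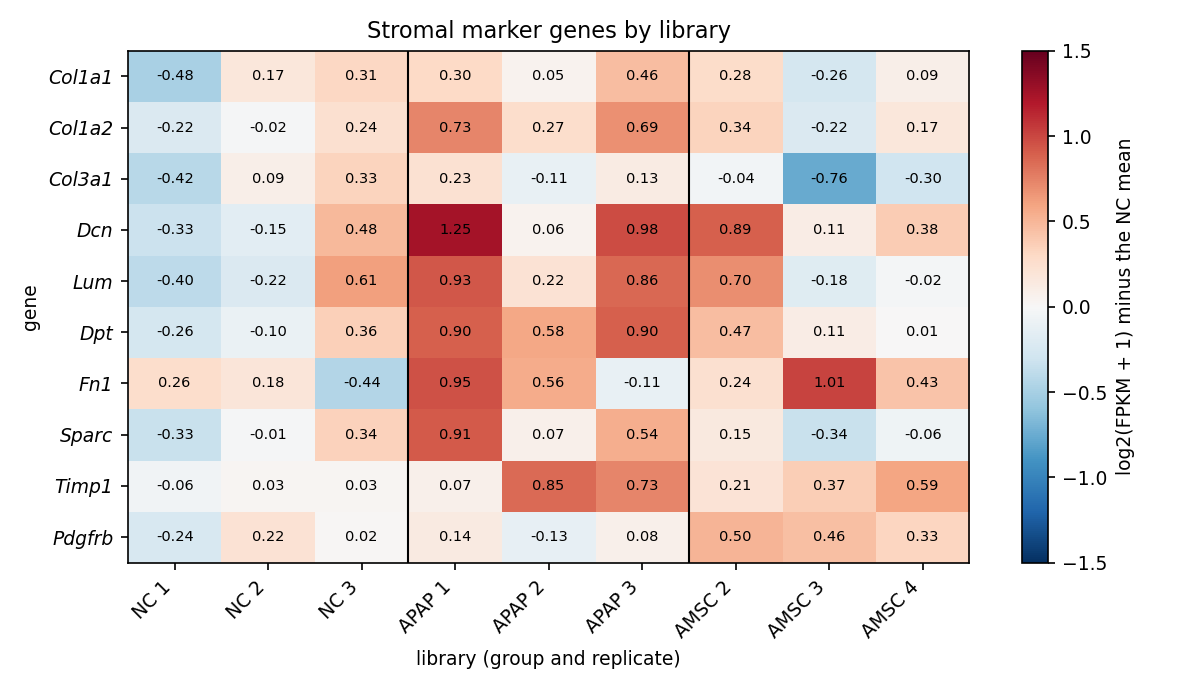
Log2(FPKM + 1) of the 10 genes (rows) in the 9 libraries (columns) minus the mean of the 3 NC libraries, in colour and as printed values. APAP replicates 1 and 3 are above the NC mean for Dcn, Lum, Dpt and Sparc and APAP replicate 2 is closer to it, while Fn1 follows another order.

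Marker lists, none of which holds a gene of the set, varied between the same libraries. The summed FPKM of 18 quiescent stellate cell genes was 70.9, 89.3 and 117.1 in NC replicates 1 to 3, 183.1, 109.8 and 164.2 in APAP replicates 1 to 3, and 148.8, 89.3 and 117.4 in AMSC replicates 2 to 4. For 15 Kupffer cell and macrophage genes it was 112.7, 111.5 and 211.2 in NC, 298.9, 166.5 and 414.6 in APAP and 162.9, 103.6 and 99.2 in AMSC. For 16 endothelial genes it was 47.3, 57.8 and 97.5 in NC, 146.0, 52.9 and 82.2 in APAP and 48.6, 45.8 and 49.1 in AMSC. NC replicate 3 was thus the highest NC library and APAP replicate 2 the lowest APAP library in all of these lists, as for most of the stromal genes, and the part of cell composition in the values above was not tested.

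The other lists differed in how far their sums separated the groups, and none was tested. Neutrophil genes (13, of which Camp was at 0 throughout and Ly6g and Mpo stayed under 1 FPKM) summed to 0.491 to 2.09 FPKM in NC, 8.06 to 36.0 in APAP and 4.92 to 6.38 in AMSC. Erythrocyte genes (7) summed to 134.5 to 254.1 FPKM, 306 to 1406 and 183 to 312 in the same order, and cholangiocyte genes (10) to 26.3 to 52.7, 64.1 to 103.3 and 33.6 to 56.7 FPKM. Adipocyte genes (8, with Retn at 0 and Adipoq under 1 FPKM in every library) summed to 3.75 to 6.53, 14.6 to 41.5 and 15.4 to 29.2 FPKM, mesothelial genes (9) to 3.41 to 7.55, 2.30 to 7.11 and 0.901 to 1.68 FPKM, and lymphocyte genes (11) to 1.54 to 3.201, 2.64 to 5.91 and 1.74 to 4.05 FPKM. Of the adipocyte genes, Cidec by itself had means of 1.42, 20.1 and 16.2 FPKM in NC, APAP and AMSC. The 12 hepatocyte genes summed to 47630 to 51460 FPKM in NC, 63880 to 73610 in APAP and 60840 to 62770 in AMSC, with Alb at 27230 to 46610 FPKM over the 9 libraries, a level of liver tissue. Their part in the stromal values was not tested.

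Some defining markers of stromal cell types stayed under 1 FPKM, while most quiescent stellate cell genes passed the filter. Of the 18 quiescent stellate cell genes, 14 passed the filter and Gfap and Nes stayed under 1 FPKM in every library. Of 16 portal fibroblast genes, 3 passed, Thy1 stayed under 1 FPKM and Mfap5 was at 0. Of 15 mesenchymal stromal cell genes, 7 passed, and Thy1, Prrx1, Twist1 and Twist2 stayed under 1 FPKM in every library, those of the AMSC group included. The summed level of that list was 105.1 to 112.0 FPKM in NC, 95.4 to 134.0 in APAP and 81.4 to 86.1 in AMSC. Smooth muscle genes (9, of which 2 passed and Myh11 and Cnn1 stayed under 1 FPKM) summed to 2.55 to 3.55, 2.91 to 12.3 and 2.80 to 4.01 FPKM.

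Genes of stellate cell activation outside the set were read from a list of their own. Of 20 listed, 19 were in the table and 7 passed the filter, and 3 of the 7 were DEGs with a rise in APAP against NC and 2 of the 7 DEGs with a fall in AMSC against APAP (median log2 fold changes 1.05 and -0.47), against 5.09% and 1.22% of all genes. Thrombospondin 1 (Thbs1), a matricellular protein that can activate latent TGF-β, was at 0.0395, 0.143 and 0.0670 FPKM in NC, 6.11, 9.33 and 11.8 FPKM in APAP and 0.311, 0.393 and 0.614 FPKM in AMSC. It was the 1 gene of the list with a mean of 1 FPKM or more in a single group, so it passed the filter only through the APAP group, and a difference was built into its being tested. The log2 fold change was 3.18 in APAP against NC (adjusted p = 0.000118) and -2.77 in AMSC against APAP (adjusted p = 0.00185, limma). Myl9, a myosin light chain of contractile cells, went from 1.15 ± 0.543 to 5.59 ± 0.7001 and 1.67 ± 0.515 FPKM (SD, n = 3), a rise and a fall that both passed (adjusted p = 0.00127 and 0.0104, limma). Smooth muscle actin (Acta2), the usual protein marker of the myofibroblast, was at 0.875, 0.195 and 1.077 FPKM in NC, 1.716, 1.178 and 5.974 in APAP and 0.601, 1.425 and 1.606 in AMSC, with an adjusted p of 0.109 in APAP against NC. Other liver cells can express Thbs1, and the source of its transcripts was not tested.

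Genes of resting stellate cells moved both ways. In APAP against NC, 11 of the 14 tested were higher and 3 lower, with a median log2 fold change of 0.46. Past the adjusted p were 2 with a higher value and 2 with a lower value, against 25.9% of all genes in either direction. The 1 DEG, Hand2, was lower, and 2.80% of all genes were DEGs with a fall. With voom there were 5 DEGs, where 12.3% of all genes were DEGs. Hand2, a transcription factor of stellate cells, was at 2.04, 2.58 and 2.42 FPKM in NC, 0.698, 0.481 and 0.253 FPKM in APAP and 5.01, 2.91 and 3.68 FPKM in AMSC. The 3 groups did not overlap, and the log2 fold change was -1.19 in APAP against NC (adjusted p = 0.00187), 1.71 in AMSC against APAP (adjusted p = 0.00643) and 0.52 in AMSC against NC (adjusted p = 0.0517, limma). Lrat, which esterifies retinol for storage, was at 2.25 ± 0.473, 1.16 ± 0.751 and 0.943 ± 0.215 FPKM (SD, n = 3) and passed the adjusted p in AMSC against NC alone (log2 fold change -0.74, adjusted p = 0.00812, limma). Reln and Des passed in no comparison. Pdgfra did not pass the filter.

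**Figure D4:**
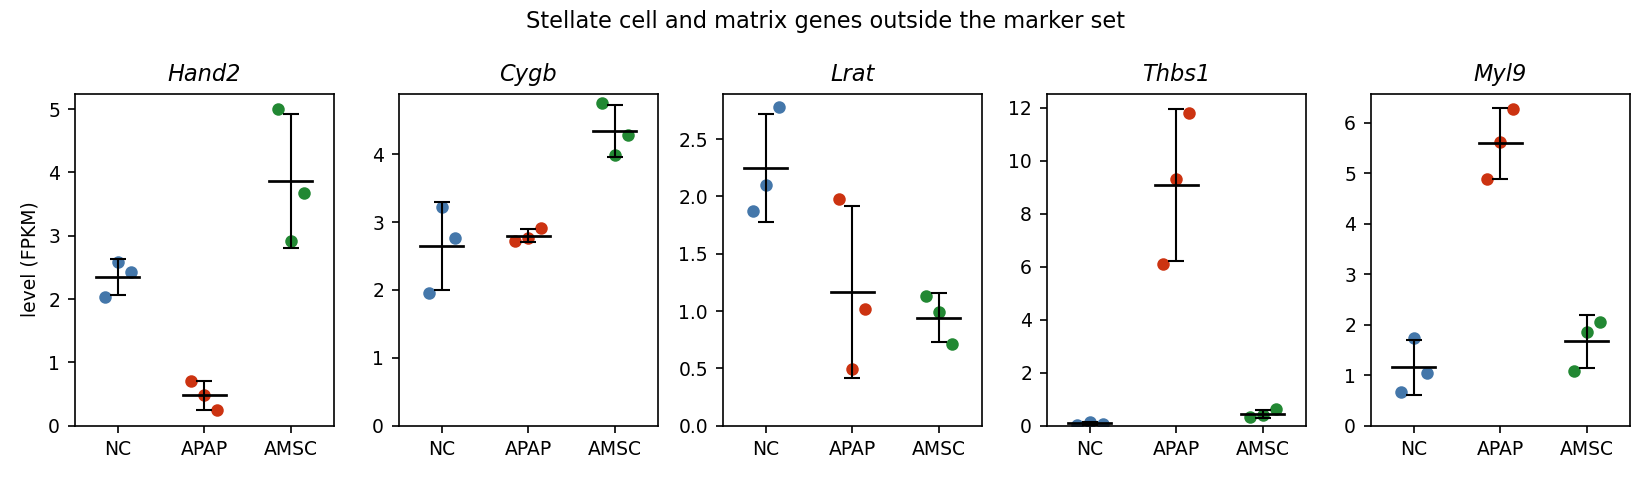
Levels in FPKM (vertical axis, starting at 0, own scale per gene) of 5 genes outside the set in the NC, APAP and AMSC groups. Points are libraries, the horizontal line is the mean and the bar the SD (n = 3). Hand2 is lowest in APAP and highest in AMSC, and Thbs1 and Myl9 are high in APAP alone.

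Matrix genes outside the set were counted list by list, with no test between lists. Of 11 tested matricellular and adhesive matrix genes outside the set, 8 were past the adjusted p with a higher value in APAP against NC (12.8% of all genes) and 5 were DEGs (5.09% of all genes), and 2 (Thbs1 and Nid1) were DEGs with a fall in AMSC against APAP (1.22% of all genes). Those counts include Thbs1, which passed the filter through the APAP group alone, and Cyr61, a matricellular target of YAP signalling, at 2.76 ± 0.446, 39.7 ± 3.54 and 36.8 ± 2.61 FPKM in NC, APAP and AMSC (log2 fold change 3.44, adjusted p = 1.41e-05, in APAP against NC and -0.11, adjusted p = 0.701, in AMSC against APAP, limma). The basement membrane genes Lamc1 (1.34 ± 0.114 to 5.42 ± 1.70 FPKM) and Nid1 (1.23 ± 0.338 to 5.36 ± 1.88 FPKM) were DEGs as well in APAP against NC (adjusted p = 0.00274 and 0.0039, limma). Of 5 tested non-fibrillar collagens, 3 were past the adjusted p with a higher value in APAP against NC (12.8% of all genes). The 1 DEG (5.09% of all genes were DEGs with a rise) was Col14a1, a fibril-associated collagen, at 3.77 ± 1.28, 9.15 ± 3.38 and 4.04 ± 1.26 FPKM (adjusted p = 0.0264, limma). Of 3 tested small leucine-rich proteoglycans outside the set, Tsku was the 1 DEG, with a fall from 109 ± 10.7 to 14.4 ± 7.13 FPKM in APAP and 74.6 ± 15.4 FPKM in AMSC (log2 fold change -2.94, adjusted p = 0.000603, and 2.38, adjusted p = 0.01, limma). Of all genes, 2.80% were DEGs with a fall in APAP against NC and 0.742% with a rise in AMSC against APAP. Of 12 tested collagen processing genes, 0 were DEGs in any comparison with limma (1 with voom, in APAP against NC), and 4, 7 and 4 were at an unadjusted p under 0.05 in APAP against NC, AMSC against APAP and AMSC against NC, where 39.1%, 20.9% and 38.0% of all genes were.

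Turnover genes differed among themselves. Of 4 TIMP genes, Timp2 and Timp3 passed the filter. With limma 0 were past the adjusted p in APAP against NC, AMSC against APAP or AMSC against NC (25.9%, 3.78% and 26.0% of all genes). With voom 1 was, in APAP against NC (27.0% of all genes). Timp2 and Timp3 were both at an unadjusted p under 0.05 in APAP against NC and in AMSC against APAP (39.1% and 20.9% of all genes). For both, every APAP library lay above every NC library, against 43.2% of all genes without overlap in either direction. Of 6 tested metalloproteinases, Adamts1 was a DEG with a rise in APAP against NC (1.24 ± 0.454 to 14.6 ± 4.08 FPKM, adjusted p = 0.000202) and a DEG with a fall in AMSC against APAP (to 5.19 ± 0.555 FPKM, adjusted p = 0.0158, limma). Mmp19 was a DEG with a fall in APAP against NC (18.5 ± 3.52 to 5.62 ± 1.33 FPKM, adjusted p = 0.00148, limma). At 7.65 ± 2.71 FPKM in the AMSC group, Mmp19 was also a DEG with a fall in AMSC against NC (adjusted p = 0.0078, limma), where 2.09% of all genes were. Of all genes, 5.09% were DEGs with a rise and 2.80% with a fall in APAP against NC, and 1.22% with a fall in AMSC against APAP. Of 4 tested plasminogen system genes, 2 were DEGs with a rise in APAP against NC (5.09% of all genes). Among them Plaur, the urokinase receptor, was also a DEG with a fall in AMSC against APAP (0.142 ± 0.0338, 2.997 ± 1.63 and 0.265 ± 0.149 FPKM in NC, APAP and AMSC). Plaur passed the filter only through the APAP group, so a rise and a fall were built into its being tested.

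Signals that act on these cells were read from lists too, which like the others were chosen with earlier results of these data known. Of 7 genes for platelet-derived growth factors and their receptors, 2 passed the filter (Pdgfrb and the ligand gene Pdgfa) and 0 were DEGs with limma. Pdgfa was past the adjusted p in AMSC against NC (log2 fold change -0.68, adjusted p = 0.0136, limma) and a DEG there with voom. In that comparison 26.0% of all genes were past the adjusted p with limma and 9.98% were DEGs with voom. Of 19 tested TGF-β pathway genes, 7 were past the adjusted p with a higher value in APAP against NC (12.8% of all genes), and 3 were DEGs with a rise (5.09% of all genes). With voom 6 were DEGs, where 12.3% of all genes were. The same list held 4 genes past the adjusted p with a lower value in AMSC against APAP (2.14% of all genes), 2 of them DEGs (1.22% of all genes). Voom gave 5 DEGs there, where 3.05% of all genes were DEGs. Thbs1 is in this list too. Tgif1, a repressor in this pathway, went from 1.01 ± 0.0535 to 11.5 ± 4.45 and 4.39 ± 0.616 FPKM (adjusted p = 0.000448 and 0.0491, limma). Of 12 tested fibronectin and collagen receptor genes, Sdc4, a heparan sulfate proteoglycan that binds fibronectin, was the 1 DEG in APAP against NC (123 ± 7.01 to 260 ± 80.7 FPKM, adjusted p = 0.0148, limma). DEGs with a rise made 5.09% of all genes there. In the AMSC group Sdc4 was at 297 ± 13.9 FPKM, again a DEG with a rise against NC (adjusted p = 0.000131, limma), where 3.92% of all genes were. Of 6 tested genes of the oncostatin M and interleukin 6 family, Socs3 and Stat3 were DEGs with a rise in APAP against NC (5.09% of all genes). Both were also DEGs with a rise in AMSC against NC (3.92% of all genes). Their means in NC, APAP and AMSC were 2.77, 24.4 and 20.8 FPKM for Socs3 and 6.35, 17.05 and 24.6 FPKM for Stat3. Il6ra, the interleukin 6 receptor, was a DEG with a rise in AMSC against APAP (8.30 ± 1.14 to 17.9 ± 3.31 FPKM, adjusted p = 0.0259, limma), where 0.742% of all genes were.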

How the data were processed

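RNA-seq was performed on whole liver from 9 mice in 3 groups of 3. The authors deposited FPKM values per gene with gene lengths. The labels name GRCm38 (mm10), and 98.33% of gene identifiers that GENCODE vM21 also holds had its start and end. The aligner and counter are not given in the sources used here. FPKM times gene length gave whole reads within 0.1 for 100% of values above 0, 13418921 to 16210930 reads per library, and 1 read on a gene of 1 kilobase was worth 0.0578 to 0.0807 FPKM. Genes averaging 1 FPKM or more were tested on log2(FPKM + 1) with limma 3.58.1 (R 4.3.3, lmFit and eBayes with trend, 2 groups per fit) and Benjamini-Hochberg adjustment over 9699 genes. A fold change on this scale understates that of low genes. The fit was run on simulated data with set changes larger than any found in the 9 stromal genes tested. That run therefore does not show how well the fit detects changes of their size. Intervals on reads are exact and cover counting error only. Figures were drawn with matplotlib 3.10.9.

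Groups and replicate numbers came from the sample labels. In APAP against NC, the departures from the group mean of libraries with one number correlated at 0.213, 0.16 and 0.378. The highest correlations with another number were -0.0116, 0.087 and -0.148. Whether the numbers pair the libraries is not settled: no label states a shared litter, batch or day. The library described as NC replicate 3 also has number 1 and another date in its title. The main fits did not use the numbers, and the replicate block was run as an alternative only. The block rests on the number in the description. In AMSC against APAP and AMSC against NC the correlations were negative. Since nothing states how libraries relate beyond 1 per liver, p-values measure the spread between these samples.

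The genes and the lists of related genes and cell type markers were chosen with earlier results of these data known. Named genes are the 10 genes, up to 6 DEGs of a list with the largest fold change, and defining markers; not all are named, and 1 gene of these lists is not reported here. Alternatives were voom on recovered reads, the replicate block, 1 fit over all 9 libraries, quantile normalization, eBayes without trend, a pseudocount of 0.1, no filter beyond a value above 0, a filter at 5 FPKM and leaving out each library.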

Additional observations from a re-analysis of the deposited data

How the results depend on the processing

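In APAP against NC, the number of DEGs among the stromal genes was 0 and became 1 with a pseudocount of 0.1 (Dpt), with voom on recovered reads (Dpt) and without APAP replicate 2 (Dcn), a range of 0 to 1 when single libraries were left out. The number past the adjusted p was 1 and became 0 with all genes above 0 and with a mean of at least 5 FPKM (3 of the genes left, Dpt not among them), 2 with all 9 libraries in a single fit (Dpt and Col1a2), 2 with voom (Dpt and Col1a2) and 2 with the replicate block (Dpt and Fn1), and 0 to 3 when single libraries were left out: 0 without NC replicate 1, NC replicate 2 or APAP replicate 3, 3 without NC replicate 3 (Lum, Dpt and Col1a2) and 3 without APAP replicate 2 (Dcn, Dpt and Col1a2). In AMSC against NC the number past the adjusted p was 0 and became 1, Pdgfrb, with voom and 0 to 1 when single libraries were left out (1 without NC replicate 2). In AMSC against APAP both counts stayed at 0 under all alternatives.

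Fold changes near 0 turned in sign. In APAP against NC, Pdgfrb was at -0.013 under quantile normalization and ranged from -0.092 to 0.14 when single libraries were left out, and Col3a1 from -0.13 to 0.25. In AMSC against APAP, Fn1 ranged from -0.20 to 0.34. In AMSC against NC, Col1a1 was at -0.025 under quantile normalization, -0.23 with the replicate block and ranged from -0.20 to 0.19, Col1a2 was at -0.0495 with the replicate block and ranged from -0.024 to 0.25, Sparc ranged from -0.25 to 0.090 and Lum from -0.10 to 0.47. The causes were not tested. The block used only replicates 2 and 3 in both comparisons with AMSC and changed no other call. With 3 livers per group, the 95% intervals of the 9 genes reached 1 or -1 in several comparisons, and Timp1 rested on 5 to 23 reads per group.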

Other observations

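Some other stellate cell transcripts had their highest mean in the AMSC group, as Pdgfrb and Hand2 did. They were picked after their values were seen, so no support is drawn from them. Most of the list went the other way: of the 14 quiescent stellate cell genes tested, 10 were lower and 4 higher in AMSC against APAP (median log2 fold change -0.30). Cygb, which encodes the stellate cell globin cytoglobin, was at 1.95, 3.23 and 2.77 FPKM in NC, 2.72, 2.77 and 2.91 FPKM in APAP and 4.75, 3.99 and 4.28 FPKM in AMSC. The AMSC libraries lay above all others, with a log2 fold change of 0.49 against APAP (adjusted p = 0.0603) and 0.56 against NC (adjusted p = 0.0266, limma). Ngfr, the p75 neurotrophin receptor of stellate cells, was at 0.565 ± 0.173, 1.28 ± 0.106 and 1.70 ± 0.237 FPKM (SD, n = 3) in NC, APAP and AMSC, and was past the adjusted p in APAP against NC (0.0225) and AMSC against NC (0.00376, limma). Tcf21, a transcription factor of resting stellate cells, was at 1.55 ± 0.297, 0.613 ± 0.174 and 1.69 ± 0.782 FPKM, lower in APAP against NC (log2 fold change -0.66, adjusted p = 0.0154) and not past the test in AMSC against APAP (0.70, adjusted p = 0.12, limma).

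Of the genes often used for cultured mesenchymal stromal cells, 7 were tested. Vcam1, an adhesion molecule, was at 0.826 ± 0.330, 4.49 ± 1.05 and 2.73 ± 0.706 FPKM (SD, n = 3) in NC, APAP and AMSC, and rose in APAP against NC (adjusted p = 0.00134) and in AMSC against NC (adjusted p = 0.0045, limma). Cxcl12, a chemokine made by stromal and endothelial cells, was at 43.3 ± 4.55, 23.2 ± 3.85 and 18.6 ± 2.17 FPKM and was lower in APAP against NC (log2 fold change -0.88, adjusted p = 0.00608) and fell in AMSC against NC (-1.18, adjusted p = 0.000533). In AMSC against APAP its adjusted p was 0.329 (limma). Of the 7 genes tested of that list, 0 were past the adjusted p in AMSC against APAP with limma or voom and 5 were at an unadjusted p under 0.05, against 3.78% and 20.9% of all genes. All 7 had a lower mean in the AMSC group than in the APAP group.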
